A study of Canis lupus familiaris with 58 samples.

Results

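Canine B-cell lymphomas sampled by fine needle aspirate were compared by the mutation status of their immunoglobulin heavy chain variable gene (IGHV), which the labels give as static or ongoing. All aspirates with either status were taken, which gave 7 static and 11 ongoing tumours, 18 of the 58 arrays of the series. The series holds 19 aspirates and 39 lymph node specimens, and 1 aspirate whose status is labelled ND was left out. All tumours came from client-owned pet dogs (Canis lupus familiaris) and were sampled before treatment, with 1 array for each dog. B-cell lineage had been established by flow cytometry, immunohistochemistry or both. The labels give no further treatment, breed or age for these groups, and the histological diagnosis of every aspirate is unknown, so each group may mix lymphoma types in unknown shares. Lymph node diffuse large B-cell lymphomas (DLBCL) with the same labels, 18 static and 12 ongoing, served as a second specimen type.

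Somatic hypermutation is the process by which DNA damage and error-prone repair change the IGHV gene of B cells in the germinal centre, the lymph node structure in which B cells divide rapidly and are selected for better antibody. A tumour with ongoing mutation carries related but differing IGHV sequences, whereas a static tumour carries 1 fixed sequence in its clone. In human B-cell tumours ongoing mutation is taken as a trait of germinal centre origin. The labels do not say how status was assigned.

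Expression was read as log2 levels of 15115 genes, 1 probe set per gene, on which a difference of 1 is a 2-fold difference. Each difference below is the static mean minus the ongoing mean, so a positive value is higher in static tumours. Levels of different probe sets are not comparable with each other. Transcripts of the B-cell antigen MS4A1 (CD20) were high in the aspirates, at 12.36 to 13.66 in static and 10.90 to 13.40 in ongoing tumours, and over the 14 measured B-cell markers the mean level ran from 9.50 to 10.81 in static and from 9.49 to 10.87 in ongoing dogs. Bulk RNA cannot tell fewer cells of a type from less RNA per cell. Array medians over the series ran from 7.08 to 7.20. The arrays of dog 42 (static) and dog 12 (ongoing) stood apart, with mean correlations of 0.945 and 0.948 with the other aspirates. RNA integrity was read from 4 pairs of control probe sets at the 3' and 5' ends of GAPDH and ACTB, whose difference grows as RNA degrades. Static aspirates averaged -0.03 ± 0.13 (SD, n = 7) on this measure and ongoing aspirates 0.27 ± 0.44 (SD, n = 11; exact permutation p = 0.0556, two-sided). Dog 12 was at 1.53, and without it the ongoing mean was 0.14 ± 0.15 (n = 10; exact permutation p = 0.0276). The fit was therefore repeated with this measure as a covariate, under which 5.78% of all genes were higher and 3.69% lower in static tumours at an unadjusted p under 0.05.

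Few single genes separated the groups. At an adjusted p under 0.05 (limma, Benjamini-Hochberg over all genes), 6 genes differed, which is 0.0397% of those tested. CLK3, TFAP2B, ZBTB4 and the unnamed locus LOC486404 were lower in static tumours (4 genes, 0.0265%), and ASB7 and PRKAB2 were higher (2 genes, 0.0132%). At an unadjusted p under 0.05 there were 1348 genes higher (8.92%) and 790 genes lower (5.23%) in static tumours, so 63.0% of these 2138 genes were higher. That split depended on scaling, and with each array centred on its own median it was 1134 higher and 1061 lower, or 51.7% higher. The median difference over all genes was -0.01. At an adjusted p under 0.1 there were 204 genes, so many lay just past the threshold.

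**Figure D1:**
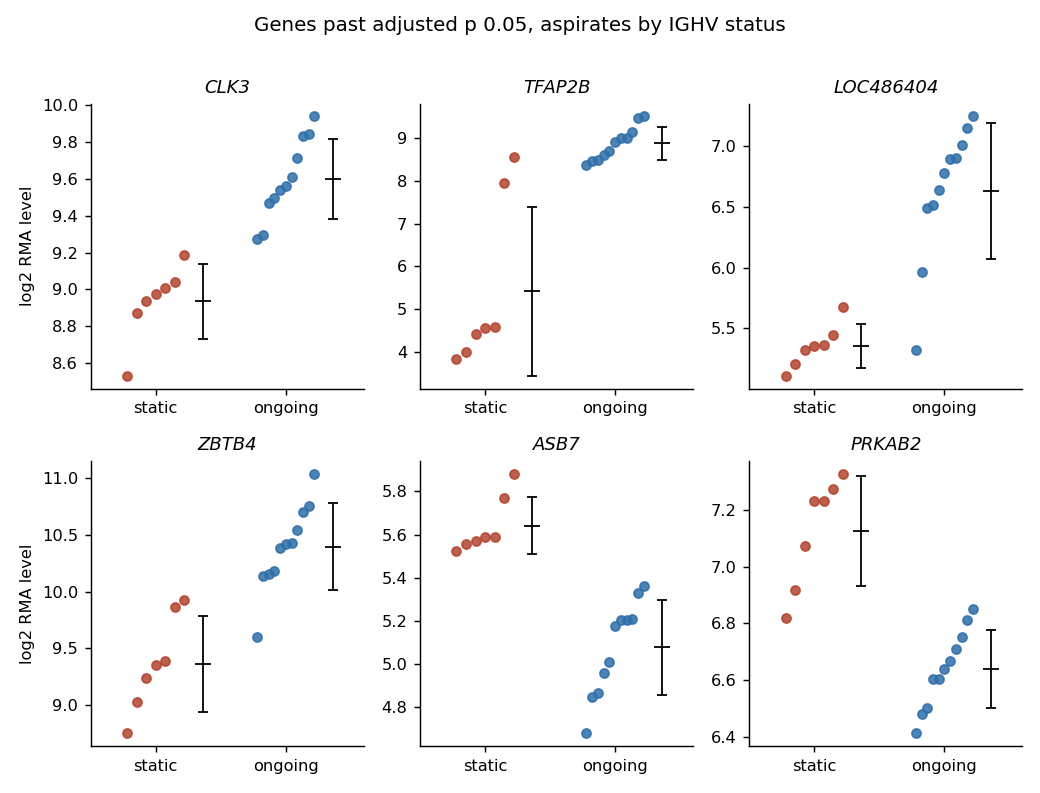
Log2 RMA level (y axis, a separate range for each panel) of the 6 genes past an adjusted p of 0.05, with 1 point per dog sorted by level within static (red, n = 7) and ongoing (blue, n = 11) aspirates, and the mean with 1 SD in black. The points of CLK3 and ASB7 do not overlap between groups, while TFAP2B splits the static dogs into 5 low and 2 high values.

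CLK3, a kinase that phosphorylates splicing factors, had the smallest p. Its level was 8.53, 8.97 and 9.19 (lowest, median and highest) in static and 9.27, 9.56 and 9.94 in ongoing aspirates. Every static dog lay below every ongoing dog, and the difference was -0.66 ± 0.10 (SE; limma adjusted p = 0.037). A second CLK3 probe set gave -0.37 ± 0.11.

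TFAP2B, which encodes the transcription factor AP-2 beta, had the largest difference of the 6 genes, at -3.47 ± 0.56 (adjusted p = 0.037). All 11 ongoing aspirates were high, between 8.37 and 9.51 with a median of 8.90. Static dogs 9, 29, 34, 40 and 46 were at 4.42, 3.84, 4.57, 3.99 and 4.56, and static dogs 42 and 47 were at 7.95 and 8.57. The ranges therefore touched only through dog 47, which lay above the lowest ongoing dogs. In lymph node DLBCL both groups held low and high tumours, from 4.13 to 10.04 in static (median 8.69) and from 3.81 to 9.75 in ongoing dogs (median 8.44). The lymph node difference was 0.49 ± 0.72, and the difference between specimens did not pass (adjusted p = 0.23 for the interaction). Low TFAP2B was thus found in ongoing tumours of lymph node, though in none of the 11 ongoing aspirates.

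ZBTB4, a zinc finger repressor that binds methylated DNA, was at 8.75, 9.35 and 9.93 in static and 9.60, 10.42 and 11.04 in ongoing aspirates. The groups overlapped through ongoing dog 4, and the difference was -1.03 ± 0.18 (adjusted p = 0.048). Of its 4 other probe sets, 1 gave -0.67 ± 0.18 and 3 lay between -0.03 and 0.03, so the probe sets disagreed. LOC486404, named here because it passed although the naming rule leaves out LOC symbols, was at 5.11, 5.35 and 5.68 in static and 5.32, 6.78 and 7.24 in ongoing dogs. Ongoing dog 30, at 5.32, lay inside the static range. The difference was -1.27 ± 0.21 (adjusted p = 0.037), and its other probe sets gave -0.31 ± 0.10 and -0.67 ± 0.16.

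ASB7, a substrate receptor of a ubiquitin ligase, was at 5.52, 5.59 and 5.88 in static and 4.68, 5.18 and 5.36 in ongoing aspirates, again without overlap. Its difference was 0.56 ± 0.10 (adjusted p = 0.041), and a second probe set gave 0.17 ± 0.11. PRKAB2, the beta-2 regulatory subunit of the energy sensor AMPK, was at 6.82, 7.23 and 7.33 in static and 6.41, 6.64 and 6.85 in ongoing dogs. Only ongoing dog 31, at 6.85, lay above the lowest static dog, and the difference was 0.49 ± 0.08 (adjusted p = 0.041).

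These calls depended on single dogs and on the RNA integrity term. Leaving out 1 dog at a time, the number of genes past the threshold was 0 without dogs 1, 15, 16, 29, 35, 40, 46 or 51, 1 without dogs 33 or 47, 2 without dog 42, 5 without dogs 20 or 30, 7 without dog 12, 23 without dog 9, 38 without dog 34, 59 without dog 31 and 167 without dog 4. With the 3' minus 5' difference as a covariate no gene passed (limma; smallest adjusted p = 0.13, with 873 higher and 557 lower at an unadjusted p under 0.05). The exact rank-sum test also gave 0 genes past adjustment, with 1171 higher and 718 lower at an unadjusted p under 0.05. The signs of the 6 differences were the same in every fit without 1 dog and in the covariate fit. The rank-sum test gives no difference of its own. Over the fits without 1 dog the CLK3 difference ran from -0.71 to -0.60.

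The next genes by p, none past the threshold, included several with large differences. BEX4 gave -2.37 ± 0.43 (adjusted p = 0.052) and its second probe set -2.29 ± 0.46. Static dogs were at 5.74, 7.19 and 8.56 and ongoing dogs at 7.00, 9.75 and 10.34, with ongoing dog 30 alone at the low end. DUSP7, a phosphatase of ERK kinases, had static levels of 5.95 to 7.06 and ongoing levels of 5.16 to 5.93, without overlap, and a difference of 0.83 ± 0.15 (adjusted p = 0.052). The haem exporter FLVCR1 (0.85), the cytokinesis protein ANLN (0.85), the ribosome processing factor WDR3 (0.78), the diphthamide synthesis gene DPH3 (0.97), ATF7IP2 (0.71), GATAD2A (0.63), the Golgi mannosidase MAN1A2 (0.47) and the lipid phosphatase MTMR4 (0.38) were higher in static means, each with an adjusted p of 0.053. Among genes with lower static means were the methionine sulfoxide reductase MSRB3 (-0.68), the lysosomal membrane protein CLN3 (-0.67), HEMK1 (-0.54) and GNPTG (-0.47), a subunit of the enzyme that tags lysosomal proteins, with adjusted p-values of 0.053 or 0.054. CRH (-0.65), ADPRS (-0.58), KLC4 (-0.52) and ABHD14B (-0.93) followed, with adjusted p-values of 0.064 to 0.071. Groups did not overlap for 5 genes higher in static tumours (0.0331% of genes), ASB7, DUSP7, RNF115, WEE1 and PTGES3, and for 5 genes lower (0.0331%), CLK3, ABHD14B, POMGNT1, UBXN1 and PHRF1. WEE1, which restrains entry into mitosis, was at 8.47 to 9.43 in static and 6.37 to 8.45 in ongoing dogs, and PTGES3, the HSP90 co-chaperone p23, at 12.03 to 12.70 and 9.56 to 12.02. Dog 12 was the lowest ongoing dog for both.

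Cell division genes were the group with the most members on the static side. Of 63 measured mitosis genes (spindle, kinetochore, condensin and cytokinesis), 62 had a higher mean in static aspirates, against 46.5% of all genes. At an unadjusted p under 0.05, 44 of the 63 were higher and 0 lower, where 8.92% of all genes were higher. No member passed the adjusted threshold; the smallest adjusted p was 0.053. The median difference was 0.63, against -0.01 over all genes. RACGAP1, which organises the central spindle, was at 9.72, 10.17 and 10.84 in static and 8.27, 9.19 and 10.03 in ongoing dogs, a difference of 0.99 ± 0.22 (adjusted p = 0.071). The condensin subunit NCAPH gave 0.96 ± 0.22 and the spindle assembly factor TPX2 1.00 ± 0.23 (both adjusted p = 0.071), with a second TPX2 probe set at 0.84. CDK1, the kinase that starts mitosis, gave 0.59 ± 0.18 (adjusted p = 0.14). The probe sets of the topoisomerase TOP2A disagreed in size, with 0.39 ± 0.29 for the one used and 1.18 ± 0.26 for the second. Over the 67 further probe sets of these genes, 59 were higher in static means, 37 of them and 1 lower one at an unadjusted p under 0.05.

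By dog, the mean level of the mitosis genes lay in a narrow band in static and a wide one in ongoing tumours. Static dogs ran from 9.50 to 9.94 with a median of 9.79. Ongoing dogs ran from 8.55 to 9.99 with a median of 9.14, and dogs 4, 20 and 33, at 9.99, 9.76 and 9.64, lay within or above the static band. The other 8 ongoing dogs lay below the lowest static dog. In lymph node DLBCL the same mean ran from 8.86 to 10.72 in static (median 9.63) and from 9.06 to 9.98 in ongoing dogs (median 9.57), with no separation by status. Dog 12, whose RNA had the largest 3' minus 5' difference, was at 9.22, above the ongoing median. With that difference as a covariate in the fit the median over the list was 0.59 and 45 members were higher at an unadjusted p under 0.05, where 5.78% of all genes were. With the covariate and without dog 12 the median was 0.51 with 25 members higher, against 3.77% of all genes. Without dogs 12 and 1, the highest in 3' minus 5', it was 0.54 with 42 members, against 7.24% of all genes. The last pair of settings was chosen after seeing the data.

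**Figure D2:**
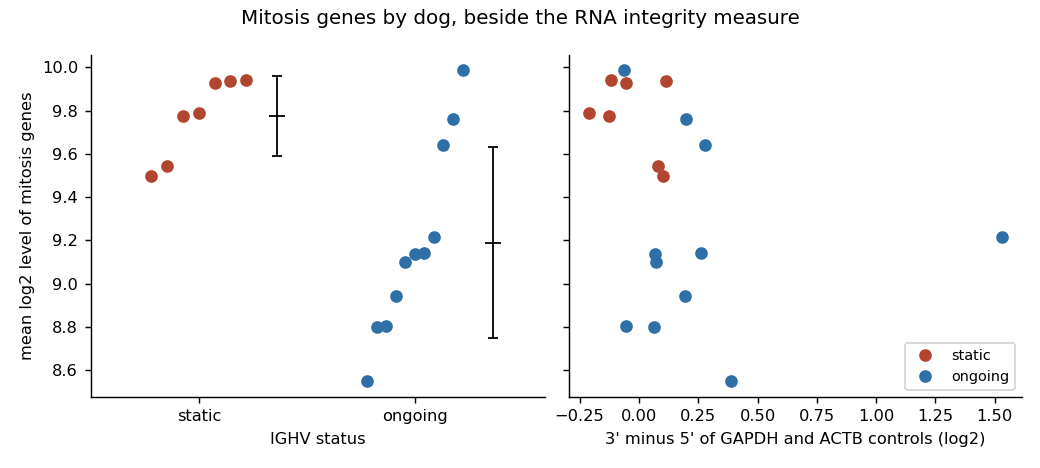
Mean log2 level of the 63 mitosis genes (y axis) by IGHV status (left, 1 point per dog sorted by level, mean with 1 SD in black) and against the RNA integrity measure (right; 3' minus 5' signal of the control probe sets, log2 units), for 7 static (red) and 11 ongoing (blue) aspirates. Static dogs lie between 9.50 and 9.94, and 2 ongoing dogs share that range, 1 lies above it and 8 lie below it; the point far to the right is dog 12.

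Replication genes followed the same side. Of 42 measured, 39 were higher in static means, against 46.5% of all genes, and the median difference was 0.33. At an unadjusted p under 0.05, 22 were higher and 0 lower, where 8.92% and 5.23% of all genes were. With the 3' minus 5' covariate 20 were higher, where 873 of all 15115 genes were, and the median was 0.34. CDC6, which loads the replicative helicase, was at 9.69, 10.22 and 10.67 in static and 8.45, 9.00 and 10.30 in ongoing dogs, a difference of 0.94 ± 0.22 (adjusted p = 0.071), and its other probe sets gave 1.42 and 1.06. The helicase subunits MCM2 and MCM3 gave 0.84 ± 0.20 and 0.63 ± 0.16 (adjusted p = 0.075 and 0.082), and the replisome protein WDHD1 gave 0.67 ± 0.15 (adjusted p = 0.071). Among 40 regulators of the cell cycle, 18 were higher and 0 lower at an unadjusted p under 0.05, with a median of 0.37, and with the covariate 14 were higher, with a median of 0.35. They included genes that drive and genes that restrain division. The phosphatase CDC25A (0.78 ± 0.18), the E2F partner TFDP1 (0.72 ± 0.17) and the ubiquitin ligase subunit SKP2 (1.04 ± 0.26), which promote entry into the cycle, stood beside the restraint RB1 (1.00 ± 0.22), with adjusted p-values of 0.071 to 0.079. RB1 was at 6.91 to 8.43 in static and 5.60 to 7.22 in ongoing dogs.

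Enzymes that make nucleotides were also higher in static means. Of 26 measured, 22 were higher, against 46.5% of all genes, and the median difference was 0.18. At an unadjusted p under 0.05, 9 were higher and 0 lower, where 8.92% and 5.23% of all genes were. With the 3' minus 5' covariate 9 were again higher, where 873 of all 15115 genes were, and the median was 0.20. MTHFD2, a mitochondrial folate enzyme that supplies carbon for purines, was at 8.23, 9.33 and 10.08 in static and 7.28, 8.03 and 9.08 in ongoing dogs. All ongoing dogs but dog 4, at 9.08, were at or below 8.24. The difference was 1.28 ± 0.24 (adjusted p = 0.052), and of its other probe sets 1 gave 1.24 ± 0.25 and 1, with a mean level of 3.53, gave 0.07 ± 0.09. PPAT, the first committed enzyme of purine synthesis, was at 8.90, 9.55 and 10.85 in static and 7.26, 8.47 and 9.37 in ongoing dogs, a difference of 1.35 ± 0.30 (adjusted p = 0.071). PRPS2, which makes the phosphoribosyl substrate of PPAT, gave 0.78 ± 0.20, and RRM2, a subunit of ribonucleotide reductase, gave 0.93 ± 0.25 (adjusted p = 0.083 and 0.11).

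Nutrient import and glycolysis genes numbered 29 of 32 higher in static means, against 46.5% of all genes, with a median of 0.28. At an unadjusted p under 0.05, 16 were higher and 1 lower, where 8.92% and 5.23% of all genes were. With the 3' minus 5' covariate 14 were higher and 0 lower, where 873 and 557 of all 15115 genes were, and the median was 0.29. SLC16A1, the lactate carrier MCT1, was at 7.07, 8.45 and 8.91 in static and 5.94, 7.20 and 8.13 in ongoing dogs. All static dogs but dog 34, at 7.07, were above every ongoing dog, and the difference was 1.28 ± 0.32 (adjusted p = 0.081). The amino acid carriers SLC7A5 (0.41 ± 0.10) and SLC1A5 (0.57 ± 0.16) and the glycolytic enzyme PFKP (0.81 ± 0.23) had adjusted p-values of 0.071, 0.11 and 0.11. Further members, chosen after their values were seen, were the iron receptor TFRC (0.95 ± 0.29), the serine synthesis enzyme PSAT1 (0.55 ± 0.16) and lactate dehydrogenase LDHA (0.38 ± 0.11).

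**Figure D3:**
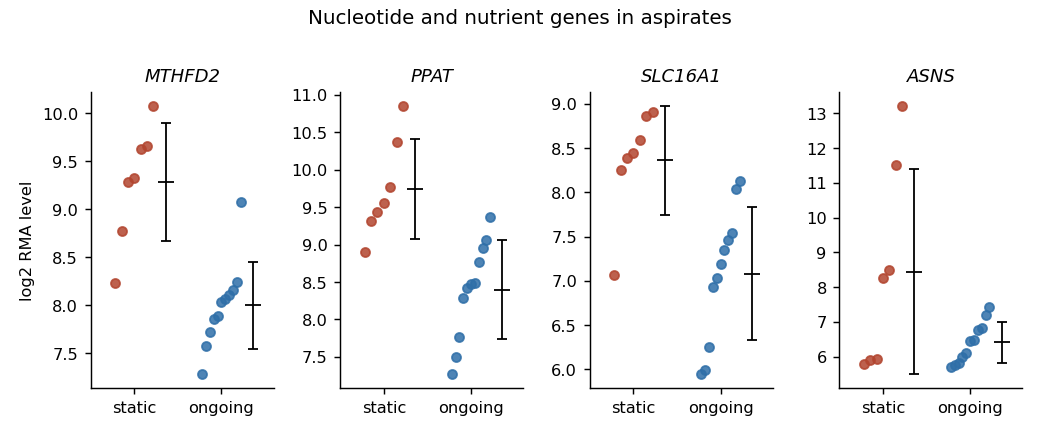
Log2 RMA level (y axis, a separate range for each panel) of MTHFD2, PPAT, SLC16A1 and ASNS by dog, sorted by level within static (red, n = 7) and ongoing (blue, n = 11) aspirates, with the mean and 1 SD in black. MTHFD2 and PPAT are shifted in nearly all static dogs, whereas ASNS is high in a few static dogs and at 5.78 to 5.92 in 3 others.

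Genes of growth showed smaller shifts. MYC itself was at 10.11, 11.67 and 11.95 in static and 9.03, 10.51 and 11.62 in ongoing dogs, and its difference of 0.68 ± 0.36 did not pass (adjusted p = 0.41). At an unadjusted p under 0.05, 8.92% of all genes were higher and 5.23% lower. Among 31 MYC and ribosome biogenesis genes, 7 were higher and 0 lower at that level, with a median of 0.15. They included the nucleolar helicase DDX18 (0.88 ± 0.21, adjusted p = 0.072), the RNA polymerase I subunit POLR1A (0.40 ± 0.13), the RNA acetyltransferase NAT10 (0.50 ± 0.16) and NOLC1 (0.36 ± 0.12). Cytosolic ribosomal proteins lay on the other side, with 29 of 42 lower in static means but 1 of them, RPL34 (-0.15 ± 0.06), at an unadjusted p under 0.05 and a median of -0.04. That count was 8 without dog 34, 6 without dog 9 and 0 without dogs 29, 42 or 47. In those fits 4.05% to 5.15% of all genes were lower. Among 35 proteasome and chaperone genes, 11 were higher and 0 lower at that level, with a median of 0.11, and without dog 42 6 were higher, where 7.48% of all genes were. The proteasome subunit PSMD12 gave 0.44 ± 0.10 (adjusted p = 0.071), the chaperones HSPA4 0.45 ± 0.12 and HSPD1 0.24 ± 0.08, and the chaperonin subunit CCT7 0.39 ± 0.13. Oxidative phosphorylation subunits were 24 higher and 22 lower, with a median of 0.01. CYCS, which encodes cytochrome c, had the smallest p of that list (0.54 ± 0.14, adjusted p = 0.097).

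The genes of hypermutation and class switching bear on the label itself. Of 30 measured genes, 22 were higher in static means and 13 were so at an unadjusted p under 0.05 (8.92% of all genes), with 2 lower (5.23% of all genes) and a median of 0.23. Many members also serve DNA replication. The clamp-linked nuclease APEX2 (0.53 ± 0.14), FAM72A (0.81 ± 0.23), which opposes the uracil glycosylase UNG, and the end-joining factor RIF1 (0.68 ± 0.20) were higher in static means, with adjusted p-values of 0.097 to 0.12. The exonuclease EXO1 (0.81 ± 0.24), the error-prone polymerase POLH (0.73 ± 0.23) and UNG (0.56 ± 0.21), which opens repair at uracil in DNA, were chosen after their values were seen and also had higher static means. The 2 members lower at an unadjusted p under 0.05 were the mismatch repair gene PMS2 and HMCES, which shields abasic sites. PMS2 was at 10.38, 10.55 and 10.78 in static and 10.47, 11.10 and 11.39 in ongoing dogs (-0.44 ± 0.11, adjusted p = 0.079). Its other probe sets gave -0.24, -0.02 and 0.40, so the probe sets disagreed. HMCES, also chosen after its values were seen, gave -0.95 ± 0.29 (adjusted p = 0.14). With the 3' minus 5' covariate, 7 members were higher and 2 lower at an unadjusted p under 0.05, with a median of 0.21, where 5.78% of all genes were higher and 3.69% lower. With dog 12 also left out, 4 of the 30 were higher and 2 lower, with a median of 0.16, where 3.77% of all genes were higher and 3.04% lower.

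Germinal centre identity genes differed little as a list, with 14 of 25 higher in static means and a median of 0.06. At an unadjusted p under 0.05, 2 were higher and 1 lower, where 8.92% and 5.23% of all genes were. The master regulator BCL6 was at 8.21, 8.69 and 10.00 in static and 8.22, 9.31 and 10.13 in ongoing dogs, a difference of -0.39 ± 0.25 that did not pass (adjusted p = 0.54). The germinal centre antigen MME (CD10) gave -0.37 ± 0.20 (adjusted p = 0.42) and the methyltransferase EZH2 gave 0.40 ± 0.20 (adjusted p = 0.37). ID3, an inhibitor of the transcription factor TCF3, was at 10.26 to 11.56 in static and 11.46 to 12.77 in ongoing dogs (-0.69 ± 0.20, adjusted p = 0.12), while the receptor-coupled GNA13 gave 0.35 ± 0.13 and AFF2 0.22 ± 0.10. Of 24 genes of the activated B-cell-like subtype of human DLBCL, 3 were higher and 0 lower at an unadjusted p under 0.05, with a median of 0.17 that was 0.06 with the 3' minus 5' covariate. These were the kinase PIM1 (0.34 ± 0.11), the ectonucleotidase ENTPD1 (0.60 ± 0.22) and the phosphatase PTPN1 (0.38 ± 0.17), with adjusted p-values of 0.17 to 0.31, and IRF4 had no named probe set.

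B-cell receptor, NF-kB and antigen presentation genes stayed near the level of all genes, of which 8.92% were higher and 5.23% lower at an unadjusted p under 0.05. Of 22 receptor genes 3 were higher and 1 lower at an unadjusted p under 0.05, namely the phosphatase PTPN6 (0.32 ± 0.13), the adaptors PIK3AP1 (0.68 ± 0.27) and DAPP1 (0.65 ± 0.27), and CD72 (-0.58 ± 0.28), a co-receptor that dampens signalling. The receptor chain CD79A gave -0.43 ± 0.46 (adjusted p = 0.76). Of 27 NF-kB genes 3 were higher, the subunit REL (0.72 ± 0.29), BCL10 (0.71 ± 0.30) and the kinase CHUK (0.41 ± 0.19), and 1 was lower, the inhibitor NFKBIA (-0.33 ± 0.13). Of 15 MHC class II genes none was higher and 1 was lower at that level, with a median of 0.00. In lymph node DLBCL 7 of the 15 were lower at an unadjusted p under 0.05, where 0.834% of all genes were. The lymph node median was -0.25. The member in question in the aspirates was DLA-DOA, which modulates peptide loading, at 10.48, 12.10 and 12.63 in static and 11.91, 12.37 and 12.87 in ongoing dogs (-0.54 ± 0.25, adjusted p = 0.33). The antigen-binding chain DLA-DQA1 had a positive difference in aspirates (0.39 ± 0.20) and a negative one in lymph node (-0.42). The interaction for DLA-DQA1 was 0.93 with an unadjusted limma p of 0.0040, and 9.10% of all genes had an unadjusted interaction p under 0.05. Its lymph node side took DLBCL and marginal zone lymphoma together, whereas -0.42 is from DLBCL alone.

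Survival, stress and chromatin genes held single members of note. At an unadjusted p under 0.05, 8.92% of all genes were higher and 5.23% lower. Among the lists of this paragraph the share higher ran from 3.1% (interferon) to 25.8% (polycomb and chromatin). Plasma cell (11.5%), resting B-cell (11.8%) and hypoxia genes (9.5%) were near the share of all genes. MCL1, which blocks apoptosis, was at 12.07, 12.36 and 12.64 in static and 11.10, 11.86 and 12.31 in ongoing dogs (0.54 ± 0.15, adjusted p = 0.11). It was 1 of 5 genes higher among 23 of the BCL2 family and death list, with 0 lower, beside the apoptosome gene APAF1 (0.40 ± 0.13) and the inhibitors BIRC5 (0.55 ± 0.20), itself a mitotic protein, and XIAP (0.25 ± 0.11). Among 30 immediate early and stress genes 4 were lower and 2 higher at an unadjusted p under 0.05. The growth factor response gene JUN was at 5.07, 7.02 and 7.60 in static and 6.02, 7.93 and 10.25 in ongoing dogs, a difference of -1.60 ± 0.51 (adjusted p = 0.15), with ongoing dogs 1, 12 and 35 at 10.25, 9.76 and 9.68. Dogs 1 and 12 were also those of highest 3' minus 5' difference. The small heat shock protein HSPB1 gave -0.91 ± 0.30 and the chaperone HSPH1 0.64 ± 0.18. Of 31 polycomb and chromatin genes 8 were higher and 2 lower at that level. SUZ12, a core subunit of the polycomb repressor, gave 1.40 ± 0.44 (adjusted p = 0.14), the methyltransferase NSD2 0.40 ± 0.11, the maintenance methylation factor UHRF1 0.71 ± 0.20 and the deacetylase HDAC2 0.27 ± 0.08, and KMT2D, chosen after its values were seen, gave -0.59 ± 0.19. Of 26 plasma cell genes 3 were higher and 1 lower, among them the elongation factor ELL2 (0.66 ± 0.22), SLAMF7 (0.41 ± 0.17), the chaperone HSP90B1 (0.21 ± 0.09) and SDF2L1 (-0.45 ± 0.20). Of 17 resting B-cell genes 2 were higher, the lipid antigen receptor CD1C (1.34 ± 0.50) and the hyaluronan receptor CD44 (1.07 ± 0.41). Of 32 interferon and class I genes IFIT2 (0.42 ± 0.15) was higher and the immunoproteasome subunit PSMB10 (-0.53 ± 0.23) lower, and of 21 hypoxia genes EGLN3 (0.61 ± 0.24) and P4HA1 (0.54 ± 0.23) were higher, all at an unadjusted p under 0.05. The interferon counts rested on static dog 42, whose mean over that list was 8.66 where the other static dogs ran from 10.32 to 11.55. Without dog 42, 6 members were higher and 0 lower, where 7.48% and 4.05% of all genes were, and the median went from -0.05 to 0.32. Other small counts also moved with single dogs, in fits where 6.93% to 9.71% of all genes were higher. Without dogs 9 or 34, 5 plasma cell genes were higher, and without dogs 4 or 31, 4 hypoxia genes were. Of the BCL2 family list 3 were higher without dogs 12, 29 or 35, and 1 receptor gene was higher without dog 42. With the 3' minus 5' covariate the median was 0.00 for plasma cell genes, from 0.11, and -0.01 for the BCL2 family list, from 0.09.

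**Figure D4:**
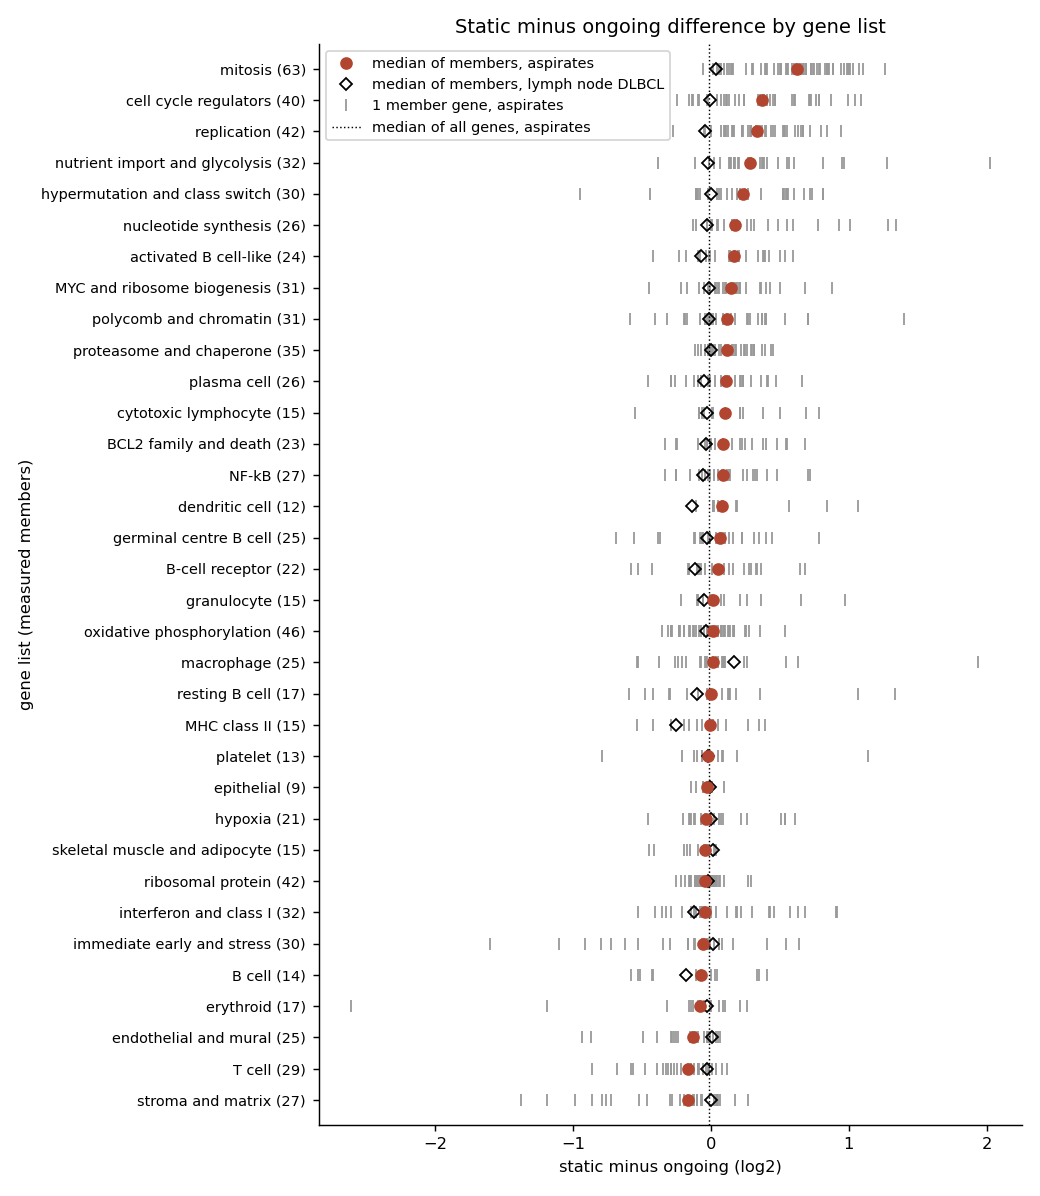
Static minus ongoing difference in log2 units (x axis) for the members of 34 gene lists (y axis, measured members in brackets), with 1 grey tick per gene in aspirates, the list median in aspirates as a filled red circle and in lymph node DLBCL as an open diamond; the dotted line is the median of all genes in aspirates. The aspirate median is 0.63 for mitosis and 0.33 for replication genes, where the lymph node medians are 0.04 and -0.04, and the lowest aspirate medians are those of stroma, T-cell and endothelial markers.

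Among markers of other cell types, those of T cells, stroma and vessels lay mostly on the ongoing side, against 53.5% of all genes with a lower static mean and 5.23% lower at an unadjusted p under 0.05. Cytotoxic (10 of 15), granulocyte (9 of 15), macrophage (13 of 25) and dendritic cell (11 of 12) markers had more members with a higher static mean. Of 29 T-cell markers 25 were lower in static means, 3 of them at an unadjusted p under 0.05 with 0 higher. The median was -0.16, and -0.25 with the 3' minus 5' covariate. That count of 3 was 6 without dogs 4 or 33, 5 without dog 35 and 1 without dogs 34 or 42. In those fits 4.05% to 5.79% of all genes were lower. The T-cell receptor chain CD247 gave -0.87 ± 0.38, CD7 -0.58 ± 0.24, the transcription factor GATA3 -0.31 ± 0.13 and the defining chain CD3E -0.14 ± 0.15 (adjusted p = 0.74). The mean level of the T-cell list ran from 7.22 to 7.80 in static and from 7.36 to 8.55 in ongoing dogs. Of 27 stroma and matrix genes 20 were lower, 2 at an unadjusted p under 0.05. With the 3' minus 5' covariate 0 were lower at that level, where 557 of all 15115 genes were. The mean of the stroma list ran from 7.48 to 8.32 in static and from 7.48 to 9.34 in ongoing dogs. The lymphoid chemokine CCL21 gave -1.19 ± 0.43, POSTN -0.28 ± 0.12 and the collagen COL1A1 -0.79 ± 0.68. Of 25 endothelial and mural genes 21 were lower, 3 of them at that level, and their mean ran from 7.07 to 7.37 and from 7.14 to 8.05. Their median was -0.13, and -0.03 with the 3' minus 5' covariate. In the covariate fit 1 was lower and 1 higher at that level, where 557 and 873 of all 15115 genes were. The 3 genes were the smooth muscle light chain MYL9 (-0.94 ± 0.27), EGFL7 (-0.29 ± 0.10) and RAMP2 (-0.87 ± 0.36). The preset endothelial gene PECAM1, 1 of the 4 members with a higher static mean, gave 0.06 ± 0.38. Its other probe sets gave 0.37, 0.59 and 0.53, none at an unadjusted p under 0.05. Both groups overlapped on all 3 lists. Of 14 B-cell markers 8 were lower in static means, 2 of them at an unadjusted p under 0.05 with 0 higher. Their median was -0.07, and -0.27 with the 3' minus 5' covariate. CD37 (-0.52 ± 0.16), a leukocyte tetraspanin counted among the B-cell markers, was at 11.55 to 13.07 in static and 12.53 to 13.30 in ongoing dogs. Of 25 macrophage genes 2 (8.0%) were higher at an unadjusted p under 0.05, near the 8.92% of all genes. These were SPP1 (1.94 ± 0.58) and HMOX1 (0.55 ± 0.24). The phagocyte gene GPNMB gave 0.63 ± 0.43 in aspirates and 1.01 in lymph node DLBCL. Of the 12 dendritic cell genes 1 (8.3%), the costimulator CD86 (0.84 ± 0.35), was higher at an unadjusted p under 0.05, also near that share. The platelet gene GP9 (-0.21 ± 0.08) was the member of its list past that level. The 17 measured red cell genes averaged 8.53 ± 0.29 (SD, n = 7) in static tumours against 8.78 ± 0.37 (n = 11) in ongoing ones (exact permutation p = 0.158). The part of the other cell types and of RNA integrity in the cell division result was not tested beyond the covariate fits given above. With the red cell mean as a covariate the mitosis median was 0.76, with 50 of 63 members higher at an unadjusted p under 0.05, where 8.78% of all genes were.

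The aspirate differences had little counterpart in lymph node DLBCL. There 149 genes were higher (0.986%) and 126 lower (0.834%) in static tumours at an unadjusted p under 0.05, with 0 past adjustment (limma). About 756 genes in all would be expected under 0.05 if no gene differed, more than were found. The reason was not tested, and the low counts do not show that the lymph node groups were alike. The mitosis, replication and nutrient lists had lymph node medians of 0.04, -0.04 and -0.02, with 0 mitosis or replication members higher or lower at an unadjusted p under 0.05. Whether the status difference itself differed between specimens was tested over 53 arrays, with lymph node DLBCL, lymph node marginal zone lymphoma and aspirate as strata. The lymph node difference in that model was fitted jointly to DLBCL and marginal zone lymphoma. The interaction passed for 2 genes (0.0132% of those tested; limma adjusted p). CLK3 had an interaction of -0.77 ± 0.12 (adjusted p = 0.0008). In lymph node DLBCL alone CLK3 was at 9.11, 9.41 and 9.59 in static and 8.94, 9.26 and 9.79 in ongoing dogs, a difference of 0.13 ± 0.07. ATF7IP2 had an interaction of 0.94 ± 0.18 (adjusted p = 0.034). It was at 8.20, 8.51 and 8.64 in static and 7.26, 7.80 and 8.30 in ongoing aspirates. Its difference in lymph node DLBCL alone was -0.29 ± 0.12. Without dogs 42 and 12 only CLK3 passed (-0.67 ± 0.12, adjusted p = 0.012). At an unadjusted interaction p under 0.05, 16 of 63 mitosis, 9 of 42 replication and 12 of 32 nutrient genes were more positive in aspirates, where 9.10% of all genes passed in either direction. No mitosis gene passed after adjustment, so a difference between specimens was not established for any of them.

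Outcome did not separate by status in these dogs. Progression-free survival times, in a unit the labels do not state, were 26, 261 and 1095 (shortest, median and longest) in static and 44, 388 and 1130 in ongoing dogs, with events in 6 of 7 and 9 of 11. The log-rank z was 0.65, positive where static dogs had more events than expected (exact permutation p = 0.522). Overall survival times were 36, 344 and 1095 in static and 44, 515 and 1130 in ongoing dogs, with 4 and 8 events, and the z was -0.32 (exact permutation p = 0.763). With 18 dogs and these event numbers, a p of this size does not show that survival was alike.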

How the data were processed

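Per the labels' protocols, Trizol-extracted RNA was processed with a biotin amplification kit for Affymetrix GeneChips. The deposited table holds log2 values of 43035 probe sets on 58 arrays, made with RMA in Affymetrix Expression Console, per the submitters' processing notes; versions and batches are not given in the sources used here. Genes were not filtered by level. A platform annotation gave 1 symbol to 29254 probe sets, several to 439 and none to 13167, and 175 were controls. Each gene was read from its probe set of highest mean over all arrays (15115 genes, 8254 with more than 1 probe set). Entrez numbers of 14295 genes matched RefSeq assembly table entries, with 0 symbols differing.

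Static and ongoing aspirates (7 and 11) were compared with limma 3.58.1 in R 4.3.3 (lmFit, default eBayes, two-sided, Benjamini-Hochberg over all genes, threshold 0.05), and the status by specimen interaction over 53 arrays. SE are the moderated ones. Exact permutation tests ran over all 31824 assignments of status (19448 without dog 12). The fit was tested on simulated data. Each sample is a different dog, so p-values measure the spread between dogs, and the number of arrays limits the precision. An outcome indicator of 1 was read as an event. Summaries and figures used Python 3.11.15 with pandas 2.3.3 and matplotlib 3.10.9.

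The groups, the 34 gene lists and the naming rule were chosen with earlier results of these data known, so no list count is independent support. The rule named the 12 genes of smallest p each way without LOC symbols, up to 4 members of smallest p in each list, genes whose groups do not overlap (at most 10) and 20 preset genes, 16 of them measured. Alternatives left out each dog in turn (18 fits) or changed the arrays, covariates, weights, variance model, test, model, scaling, probe sets or level filter (14 fits).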

Additional observations from a re-analysis of the deposited data

Results flagged for a closer look

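Among static aspirates, dog 42 stood apart in array likeness: the gap between its mean correlation with the other aspirates and that of the nearest static dog was 0.684 of the group's whole range. The same share of the range set dog 42 apart as the highest static dog for WDHD1 (0.651), NAT10 (0.667) and POLH (0.618), and as the lowest for ID3 (0.699), PTPN6 (0.693) and SDF2L1 (0.648). Dog 34 was the lowest for SLC16A1 (0.643) and the highest for GP9 (0.571), and dog 40 was the lowest for HSPH1 (0.598) and the highest for CCL21 (0.805). In all 11 of 137 static value sets looked at were marked this way, 7 of them through dog 42, and chance marks about 1 in 20. The ongoing group, with 11 dogs, was not looked at in this way. Without dogs 42 and 12, the arrays of lowest correlation, 43 of 63 mitosis genes were still higher in static means at an unadjusted p under 0.05, with a median of 0.60, where 7.10% of all genes were.

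The difference between static and ongoing tumours itself differed between aspirates and lymph node for CLK3 (limma interaction adjusted p = 0.0007978) and ATF7IP2 (adjusted p = 0.03386).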

How the results depend on the processing

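Genes past adjusted p 0.05 numbered 6 as reported and 0 to 167 when 1 dog was left out. They numbered 1 without dogs 42 and 12, 0 with the 3' minus 5' covariate (also 0 with dog 12 left out), 3 with the red cell covariate, 10 with trend and robust variance, 0 by the exact rank-sum test, 107 in the 53-array model, 11 after quantile normalization, 23 with probe sets averaged and 2 without the genes of lowest mean level. Higher genes at an unadjusted p under 0.05 ran from 1047 to 1468 without 1 dog and were 873 with the 3' minus 5' covariate and 570 with dog 12 also left out; lower genes ran from 612 to 875 and were 460 in the latter. The interaction passed for 1 gene without dogs 42 and 12. The causes were not tested. Of 4313 gene values under alternatives 3 changed sign, all of MS4A1: -0.041 and -0.0464 with the 3' minus 5' covariate (all dogs, then without dog 12) and -0.0181 with array weights. Medians of the 8 lists on division, growth and repair kept their sign in all 256 combinations of list and alternative fit. The rank-sum test, trend and robust variance and 53-array model leave each difference unchanged, so none of them could change a sign. The fit without dog 12 entered both as a dog left out and as an array change. Medians of some other lists changed sign, among them germinal centre (-0.03 to 0.08 over the alternatives), NF-kB (-0.06 to 0.13) and interferon genes (-0.11 to 0.32). Those of others, such as T-cell markers (-0.31 to -0.10), did not. The log-rank z ran from 0.32 to 1.65 for progression-free and from -0.72 to 0.13 for overall survival, where it turned positive without static dogs 29 (0.13), 34 (0.04) or 47 (0.13). No paired analysis was possible because each array is a different dog and replicate numbers only name arrays. With 7 and 11 arrays, small differences could not be seen, and a missed threshold does not show that groups were alike.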

Other observations

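Asparagine synthetase, ASNS, was high in a few static aspirates, a pattern singled out after its values were seen. Dogs 42 and 40 were at 13.22 and 11.51 and dogs 46 and 47 at 8.49 and 8.26, whereas static dogs 9, 29 and 34 were at 5.89, 5.92 and 5.78 and the 11 ongoing dogs between 5.71 and 7.44. The group difference of 2.03 ± 0.83 did not pass (limma adjusted p = 0.27), and the other probe sets gave 1.62 and 1.92. In lymph node DLBCL the gene ran from 5.46 to 13.19 in static and from 5.14 to 10.53 in ongoing dogs, so high values occurred there under both labels. A set of 31 genes tied to amino acid supply, ASNS among them, was looked at after these values were seen and has no test of its own. In it 26 genes had a higher static mean (46.5% of all genes), 8 were higher (8.92% of all genes) and 0 lower at an unadjusted p under 0.05, 0 passed adjustment (limma), and the median difference was 0.17. The 8 were ASNS, MTHFD2 (1.28), SLC7A5 (0.41), PSAT1 (0.55), XPOT (0.44), SESN2 (0.39), WARS1 (0.50) and CTH (0.61). The transcription factor ATF4 (-0.05), TRIB3 (0.07), CHAC1 (0.06) and DDIT3 (-0.31) were in the set but not among the 8. The cause of the pattern was not tested.

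NFIA, a transcription factor also chosen after its values were seen, was low in static dogs 9, 29, 34 and 42 (5.95, 6.00, 5.55 and 5.78) and in ongoing dog 30 (6.21), and between 8.09 and 10.69 in the other 13 aspirates. Its difference was -2.28 ± 0.60 (adjusted p = 0.098), and its other probe sets gave -2.11, -0.54 and -0.08. The static dogs low for NFIA were not the same as those low for TFAP2B: dogs 9, 29 and 34 were low for both, dog 42 for NFIA alone, and dogs 40 and 46 for TFAP2B alone.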
